A study of Mus musculus with 30 samples.

Results

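Tibialis anterior muscle that received NT siRNA was compared with the control muscle of a cancer experiment and of a dexamethasone experiment. The comparison takes 12 of the 30 samples of the series, namely 4 NT siRNA libraries, 4 LLC control libraries and 4 dexamethasone control libraries, and all genes of the deposited table. The tibialis anterior is a fast muscle of the shin, and every sample came from male C57BL/6J mice. NT siRNA muscle is the control arm of an experiment that set it beside muscle given siRNA against Cyr61. The labels do not spell out NT, and they give neither the sequence nor the route of delivery of the siRNA. The LLC and dexamethasone controls carry the treatment label Control and no other agent, and no age is given for any of these 3 groups. Values of 4 Cyr61 siRNA libraries and of 3 libraries from young mice, aged 6 months, are set beside them. Each group belongs to its own experiment, so the siRNA and everything else that differed between experiments (handling, day, age, feeding) cannot be told apart. A gene was kept when it differed in the same direction from both control groups.

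Skeletal muscle switches between glucose and fatty acids as fuel. In fasting or under glucocorticoid, FoxO transcription factors and the glucocorticoid receptor induce Pdk4, which blocks entry of pyruvate into the mitochondrion, the ubiquitin ligases Fbxo32 and Trim63, and autophagy genes, while insulin restrains FoxO. The spaces between fibres hold fibroblast-like progenitors, vessels, nerve and the ends of tendon, which make most of the collagen.

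Promoters of genes that were higher in NT siRNA muscle were read for the binding motifs of these regulators. The windows run from 250 bases before to 50 bases after a RefSeq start (GRCm38.p6), and a gene can have more than 1 window. Of 41 named genes that were higher, 31 had a window. The FoxO motif GTAAACA and the palindromic glucocorticoid receptor motif, made of the arms GNACA and TGTNC set 3 bases apart, were searched on both strands. Trim63 held both, without overlap, Sesn1 and Eda2r held the FoxO motif, and Gnmt and Amy1 held the receptor motif. In Sesn1 and Gnmt the match began at bases 273 and 270 of the window, which lie after the gene start. RefSeq lists Gnmt at chr17:46725664-46729211 (minus strand). Its window therefore holds fewer than 250 bases before the outer gene start and more than 50 after it. The windows of Trim63, at chr4:134314870-134315169 (plus strand), Sesn1, at chr10:41810324-41810623 (plus strand), and Gnmt, at chr17:46729116-46729415 (minus strand), are shown because these are a ubiquitin ligase, a growth inhibitor and a methyltransferase described below. Capitals mark the motif matches.
Trim63: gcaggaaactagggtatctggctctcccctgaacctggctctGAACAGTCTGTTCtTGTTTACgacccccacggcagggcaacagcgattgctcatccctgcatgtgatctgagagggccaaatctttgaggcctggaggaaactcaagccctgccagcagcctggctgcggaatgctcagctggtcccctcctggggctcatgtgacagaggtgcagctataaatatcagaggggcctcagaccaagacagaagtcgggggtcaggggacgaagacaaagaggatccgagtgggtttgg
Sesn1: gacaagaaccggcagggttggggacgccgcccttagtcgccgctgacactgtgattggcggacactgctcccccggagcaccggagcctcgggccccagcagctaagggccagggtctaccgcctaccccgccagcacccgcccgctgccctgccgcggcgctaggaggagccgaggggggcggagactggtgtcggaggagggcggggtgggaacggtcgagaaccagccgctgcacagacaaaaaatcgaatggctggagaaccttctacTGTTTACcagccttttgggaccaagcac
Gnmt: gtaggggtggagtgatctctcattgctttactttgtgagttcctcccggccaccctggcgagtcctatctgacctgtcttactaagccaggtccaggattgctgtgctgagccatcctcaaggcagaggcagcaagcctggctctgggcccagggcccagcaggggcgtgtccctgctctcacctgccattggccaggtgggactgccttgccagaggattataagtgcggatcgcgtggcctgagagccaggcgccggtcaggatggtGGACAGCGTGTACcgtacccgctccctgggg
Over all 32851 windows, 3.65% held the FoxO motif and 0.475% the receptor motif. Over the 372 windows of 296 kept genes that were higher, the shares were 5.38% and 1.08%, and over the 949 windows of 708 kept genes that were lower they were 1.79% and 0.421%. A match describes letters in a window and not a site that is bound.

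The libraries were deep and were muscle by their markers. Reads recovered from the steps of the TPM values, in units of 1000000 and approximately, numbered 40.1 to 45.5 in NT siRNA libraries, 47.7 to 52.3 in LLC controls and 53.7 to 60.02 in dexamethasone controls. A count of 3 reads for a gene of 2 kb corresponded to 0.0512 to 0.0782 TPM. The summed level of 10 muscle identity genes was 64930 to 83290 TPM in NT siRNA libraries, 91080 to 102800 TPM in LLC controls and 79690 to 90310 TPM in dexamethasone controls. Of these 10 genes, Acta1, the skeletal actin, was the 1 that was kept. Its level was 18848, 21378, 23132 and 15490 TPM in NT siRNA libraries, against 31654, 30648, 26254 and 27687 TPM in LLC controls and 25781, 25240, 29772 and 30350 TPM in dexamethasone controls. Mitochondrially encoded genes took 47.4 to 57.2% of TPM in NT siRNA libraries, 41.7 to 48.7% in LLC controls and 46.3 to 50.7% in dexamethasone controls. The mean difference was 5.10 percentage points against LLC controls (exact permutation test, two-sided, p = 0.114) and 2.31 points against dexamethasone controls (exact permutation p = 0.429), where the smallest p that 70 arrangements allow is 0.0286.

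Of 11615 genes tested, 399 were higher and 1279 were lower in NT siRNA muscle than in both controls, which is 3.44% and 11.0% of the genes tested. Against LLC controls alone, 1293 genes were higher (11.1%) and 1804 lower (15.5%). Against dexamethasone controls alone, 676 were higher (5.82%) and 4377 lower (37.7%). The 2 control groups also differed from each other, with 509 genes higher (4.38%) and 3812 lower (32.8%) in LLC than in dexamethasone controls. The median gene differed by -0.03 between NT siRNA and LLC control muscle and by -0.18 between NT siRNA and dexamethasone control muscle on the scale of log2(TPM + 1), on which changes of low genes are understated. The differences below, called relative log2 differences, are those beyond the median gene, each with the standard error (SE) of the difference. After median-of-ratios scaling, which brings these medians to -0.0045 and -0.03, 1111 genes were kept as higher (9.57%) and 1185 as lower (10.2%), so that higher genes made up 48.4% of those kept in place of 23.8%. Under both scalings 399 genes were kept as higher and 995 as lower (8.57%). Leaving aside Sgk1 and Fasn, every kept gene named below except Bhlhe40 is among them. NT siRNA libraries lay above all 8 control libraries in 205 of the genes tested (1.76%) and below all 8 in 1243 (10.7%), and statements on overlap are to be read against these shares. The p-values measure the spread between samples that the labels call biological replicates.

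**Figure D1:**
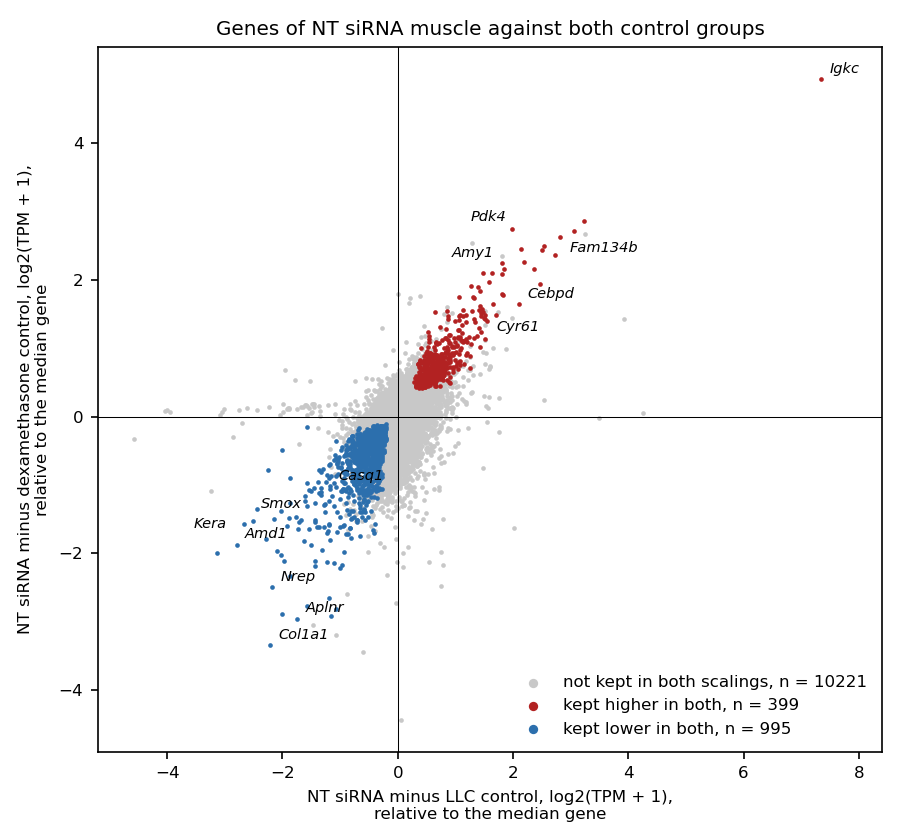
Each point is 1 of 11615 genes, with the difference in log2(TPM + 1) between NT siRNA and LLC control muscle on the horizontal axis and between NT siRNA and dexamethasone control muscle on the vertical axis, each relative to the median gene. Red points are the 399 genes kept as higher and blue points the 995 kept as lower under both scalings, and Igkc lies alone at the upper right; both axes share the NT siRNA libraries.

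The library NT siRNA 4 stood apart from the other NT siRNA libraries in many of these genes. Without it, 1002 genes were kept as higher, of which 374 are among the 399, and 1155 as lower. It had the highest mitochondrial share, 57.2%. Pdk4 was at 192 TPM in this library, within the range of the controls. In the Cyr61 siRNA group, the library numbered 4 was the lowest for Pdk4, with 465 TPM, and for Fam134b, with 192 TPM. The labels do not say whether a number marks a shared animal.

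**Figure D2:**
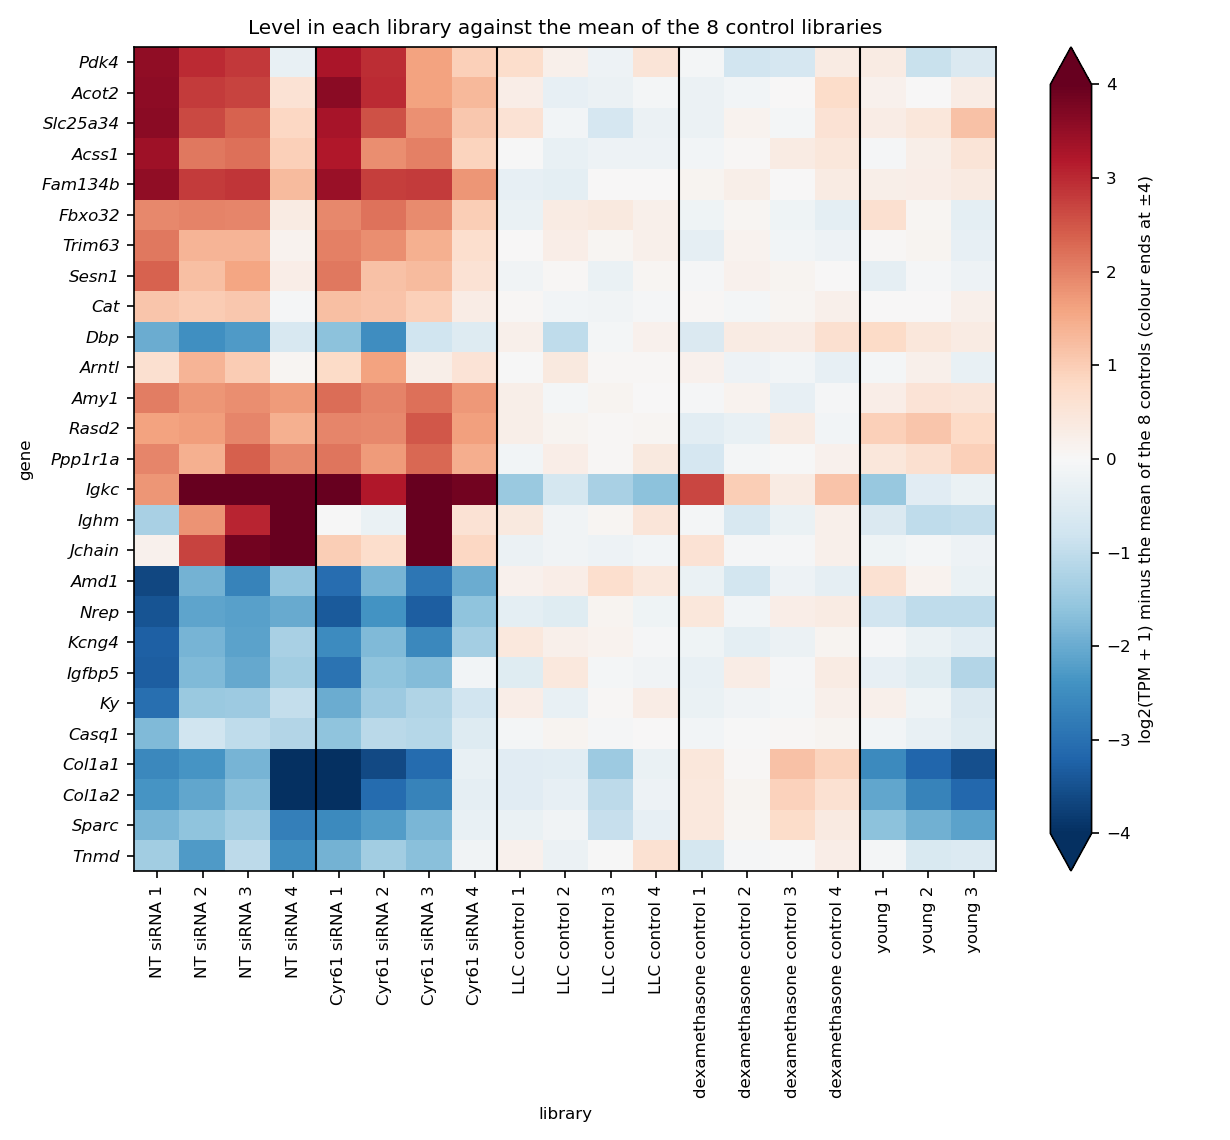
Colour gives log2(TPM + 1) of a gene (rows) in each of 19 libraries (columns) minus its mean over the 8 control libraries, red for higher and blue for lower, with the colour ending at 4 in either direction. NT siRNA 4 is pale in the rows of Pdk4, Fbxo32, Trim63 and Cat, while Amy1, Rasd2 and Ppp1r1a are red in all 4 NT siRNA libraries; Cyr61 siRNA libraries show a like pattern, except that Cyr61 siRNA 4 is pale in the rows of Col1a1, Col1a2, Sparc and Tnmd.

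A minority of the genes of fat use were higher in NT siRNA muscle than in both controls. Among 23 tested genes of fatty acid oxidation, 8 were kept as higher and 0 as lower, and their median relative difference was 0.38 against LLC controls and 0.69 against dexamethasone controls, where the median of all genes is 0 by construction. After median-of-ratios scaling, 12 were kept as higher, beside 9.57% of all genes in place of 3.44%. The count was 14 without NT siRNA 4, where 1002 genes in all were kept as higher in place of 399. It was 4 without NT siRNA 1, 2 or 3, LLC control 2 or dexamethasone control 2. It was 5 without LLC control 3, LLC control 4 or dexamethasone control 3.

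Pdk4, the kinase that shuts off pyruvate dehydrogenase, had 2814, 1884, 1692 and 192 TPM in NT siRNA libraries, against 385, 273, 208 and 338 TPM in LLC controls and 223, 141, 148 and 300 TPM in dexamethasone controls. The first 3 NT siRNA libraries lay far above every control, and NT siRNA 4 lay below all 4 LLC controls. The relative log2 difference was 1.99 (SE 0.62, adjusted p = 0.0332) against LLC controls and 2.74 (SE 0.62, adjusted p = 0.00461) against dexamethasone controls. Without NT siRNA 4 it was 2.79 (adjusted p = 2.6e-05) and 3.55 (adjusted p = 1.27e-05). The call against LLC controls was lost without NT siRNA 1, 2 or 3 or without any 1 LLC control, with adjusted p of 0.0516 to 0.0961. Acot2, a mitochondrial thioesterase that frees fatty acids from coenzyme A, had 89.3, 51.6, 48.7 and 10.3 TPM in NT siRNA libraries, against 5.08 to 8.08 TPM in LLC controls and 5.44 to 11.7 TPM in dexamethasone controls. Its groups overlapped through NT siRNA 4 and 1 dexamethasone control (relative log2 difference 2.53 and 2.49, adjusted p = 0.00198 and 0.00136).

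Cd36 and Lpl, genes of fatty acid uptake, were higher, and neither overlapped between NT siRNA and control libraries. Cd36, the fatty acid transporter of the fibre membrane, had 418, 253, 311 and 184 TPM in NT siRNA libraries, against 92.7 to 123 TPM in LLC controls and 133 to 153 TPM in dexamethasone controls. Its mean was 2.68-fold and 2.09-fold that of the controls (adjusted p = 0.000284 and 0.000844). Lpl, the lipase that releases fatty acids from blood lipoproteins, had 332, 154, 155 and 162 TPM in NT siRNA libraries, against 69.4 to 122 TPM in LLC controls and 64.2 to 110 TPM in dexamethasone controls. NT siRNA 1 lay far above the other 3, and its relative log2 differences were 1.12 and 1.46 (adjusted p = 0.00649 and 0.00107).

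Plin5, which coats lipid droplets and tethers them to mitochondria, had 97.8, 54.3, 49.2 and 21.5 TPM in NT siRNA libraries, against 12.6 to 19.96 TPM in LLC controls and 9.89 to 16.6 TPM in dexamethasone controls. Slc25a34, a carrier of the inner mitochondrial membrane, had 91.0, 46.6, 38.2 and 12.4 TPM in NT siRNA libraries, against 3.81 to 10.3 TPM in LLC controls and 5.48 to 10.4 TPM in dexamethasone controls. Acss1, the mitochondrial acetyl-CoA synthetase, had 65.3, 26.1, 27.7 and 11.0 TPM in NT siRNA libraries, against 4.10 to 5.19 TPM in LLC controls and 4.87 to 7.57 TPM in dexamethasone controls. All 3 genes lay above every control library, as did 1.76% of all genes tested, and the adjusted p of each was 0.00354 or less in both comparisons.

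Some genes of sugar use were lower. Among 21 tested genes of glycolysis and glycogen use, 0 were kept as higher and 6 as lower; after scaling 1 was kept as higher and 3 as lower, beside 10.2% of all genes kept as lower. Ldha, which makes lactate from pyruvate, averaged 1179 ± 105 TPM in NT siRNA muscle, 1783 ± 114 TPM in LLC controls and 1623 ± 50.3 TPM in dexamethasone controls (SD, n = 4 each; limma adjusted p = 0.000291 and 0.000594). Pgam2, the muscle phosphoglycerate mutase, averaged 2466 ± 202, 4030 ± 490 and 3391 ± 355 TPM in NT siRNA, LLC control and dexamethasone control muscle (SD, n = 4 each; limma adjusted p = 0.000504 and 0.00342). Scd2, a fatty acid desaturase, had 3.31 to 5.11 TPM in NT siRNA libraries, against 8.03 to 19.1 TPM in LLC controls and 15.3 to 20.04 TPM in dexamethasone controls. Srebf1, the regulator of fat synthesis that insulin induces, had 5.69 to 8.15 TPM in NT siRNA libraries, against 10.8 to 20.5 TPM and 12.3 to 16.2 TPM in the same controls, and it was singled out after its values were seen. All 4 genes had every NT siRNA library below every control, as had 10.7% of all genes tested. None of 40 tested nuclear genes of oxidative phosphorylation was kept; 4 were called lower against LLC controls and 3 higher against dexamethasone controls.

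Of 21 tested genes that answer fasting, feeding or glucocorticoid, 5 were kept as higher and 4 as lower, beside 3.44% and 11.0% of all genes tested. The 4 lower genes were Sgk1, Srebf1, Fasn and Scd2. The higher count was 8 without NT siRNA 4 and 3 without NT siRNA 1, 2 or 3 or without LLC control 2, 3 or 4. Fkbp5, a chaperone of the glucocorticoid receptor and a classic receptor target, had 41.0, 35.2, 29.3 and 11.9 TPM in NT siRNA libraries, against 5.70 to 8.08 TPM in LLC controls and 5.34 to 6.50 TPM in dexamethasone controls. Every NT siRNA library lay above every control, and the mean was 4.23-fold and 4.84-fold that of the controls (adjusted p = 0.000526 and 0.000111). Cebpd, a transcription factor of the acute stress response, had 37.5, 15.2, 30.4 and 17.3 TPM in NT siRNA libraries, against 3.58 to 7.93 TPM in LLC controls and 6.59 to 9.06 TPM in dexamethasone controls (relative log2 difference 2.11 and 1.64, adjusted p = 0.000145 and 0.000582). Klf15, a glucocorticoid-induced regulator of amino acid breakdown, had 45.6, 29.3, 33.8 and 21.2 TPM in NT siRNA libraries, against 12.9 to 15.2 TPM and 14.0 to 17.5 TPM in the same controls (relative log2 difference 1.12 and 1.10, adjusted p = 0.00062 and 0.000704).

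The ubiquitin ligases Fbxo32 and Trim63 were higher, with a minority of their list. Of 18 tested atrophy ligases and FoxO targets, 6 were kept as higher and 1 as lower, beside 3.44% and 11.0% of all genes tested. After scaling 9 were kept as higher, beside 9.57% of all genes. Leaving out 1 library at a time gave 4 to 9 higher genes. Fbxo32, also named atrogin-1, had 265, 275, 271 and 86.5 TPM in NT siRNA libraries, against 57.5, 87.9, 91.8 and 80.7 TPM in LLC controls and 60.8, 72.9, 61.3 and 52.2 TPM in dexamethasone controls. The first 3 NT siRNA libraries lay close together, while NT siRNA 4 lay within the LLC controls. The relative log2 difference was 1.39 (SE 0.30, adjusted p = 0.00561) against LLC controls and 1.89 (SE 0.30, adjusted p = 0.000558) against dexamethasone controls, and 1.75 and 2.25 without NT siRNA 4.

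Trim63, also named MuRF1, had 524, 310, 313 and 132 TPM in NT siRNA libraries, against 121 to 144 TPM in LLC controls and 92.7 to 133 TPM in dexamethasone controls. Here too NT siRNA 4 overlapped the controls (relative log2 difference 1.14 and 1.56, adjusted p = 0.0137 and 0.00192). Its promoter, printed above, carries both motifs. Eif4ebp1, which blocks cap-dependent translation until mTORC1 phosphorylates it, had 204, 142, 166 and 66.7 TPM in NT siRNA libraries, against 39.2 to 46.4 TPM in LLC controls and 41.9 to 53.1 TPM in dexamethasone controls. It lay above every control in all 4 libraries (adjusted p = 0.000555 and 0.000402). Sesn1, an inhibitor of mTORC1 and a target of FoxO and p53, had 51.7, 22.8, 29.8 and 11.3 TPM in NT siRNA libraries, against 7.61 to 9.88 TPM and 9.01 to 10.5 TPM in the same controls (adjusted p = 0.00459 and 0.00376).

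Fam134b, a receptor that delivers endoplasmic reticulum to autophagosomes, was the first gene by the smaller of its 2 differences among the genes that passed the naming rule. RefSeq lists it as Retreg1, at chr15:25843298-25973696 (GRCm38.p6). It had 660, 388, 402 and 132 TPM in NT siRNA libraries, against 43.4, 42.0, 55.6 and 56.1 TPM in LLC controls and 58.9, 64.9, 55.7 and 69.6 TPM in dexamethasone controls. The lowest NT siRNA library was still above the highest control (relative log2 difference 2.81, SE 0.34, adjusted p = 0.000127 against LLC controls, and 2.62, SE 0.34, adjusted p = 0.000115 against dexamethasone controls). Of 27 tested genes of autophagy and lysosome, 6 were kept as higher and 1 as lower, beside 3.44% and 11.0% of all genes tested. The higher count was 2 without NT siRNA 3. It was 3 without NT siRNA 1, NT siRNA 2, LLC control 2, 3 or 4, or dexamethasone control 2 or 3. Gabarapl1, a protein of the autophagosome membrane, had 157, 110, 120 and 46.2 TPM in NT siRNA libraries, against 32.4 to 43.1 TPM and 32.1 to 37.9 TPM in LLC and dexamethasone controls (adjusted p = 0.0023 and 0.000798). Bnip3, a mitophagy receptor, averaged 225 ± 73.1, 125 ± 6.20 and 128 ± 7.89 TPM in NT siRNA, LLC control and dexamethasone control muscle (SD, n = 4 each; limma adjusted p = 0.00657 and 0.00417).

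The stress lists gave calls in both directions, beside 3.44% of all genes tested kept as higher and 11.0% as lower. Of 16 tested genes of metallothioneins and oxidative stress, 4 were kept as higher and 1 as lower, and of 15 tested targets of p53, 3 were kept as higher and 0 as lower. Of 22 tested heat shock proteins, 0 were kept as higher and 3, Hspa4l, Dnaja1 and Hsph1, as lower. Of 20 tested genes of the unfolded protein response and ATF4, Dnajb9 was kept as higher and Calr and Pdia6 as lower. The counts of both lists are near those shares. Gadd45a, a growth arrest gene that rises after denervation, had 63.1, 83.1, 71.6 and 31.9 TPM in NT siRNA libraries, against 14.1 to 32.5 TPM in LLC controls and 24.4 to 38.7 TPM in dexamethasone controls (adjusted p = 0.00202 and 0.0125). Cat, the catalase of peroxisomes, had 126, 120, 125 and 56.7 TPM in NT siRNA libraries, against 52.4 to 59.5 TPM and 54.7 to 67.5 TPM in the same controls (adjusted p = 0.00752 and 0.00936). In both genes NT siRNA 4 overlapped the controls and the other 3 libraries did not overlap LLC controls. Of 31 tested proteasome subunits, 2 were kept as higher, which is near the share over all genes, and 0 as lower. After scaling 8 were kept as higher, beside 9.57% of all genes. The higher count was 14 without NT siRNA 4, where 1002 genes in all were kept as higher in place of 399. It was 1 without NT siRNA 1, 2 or 3, without any 1 LLC control, and without dexamethasone control 2 or 3.

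**Figure D3:**
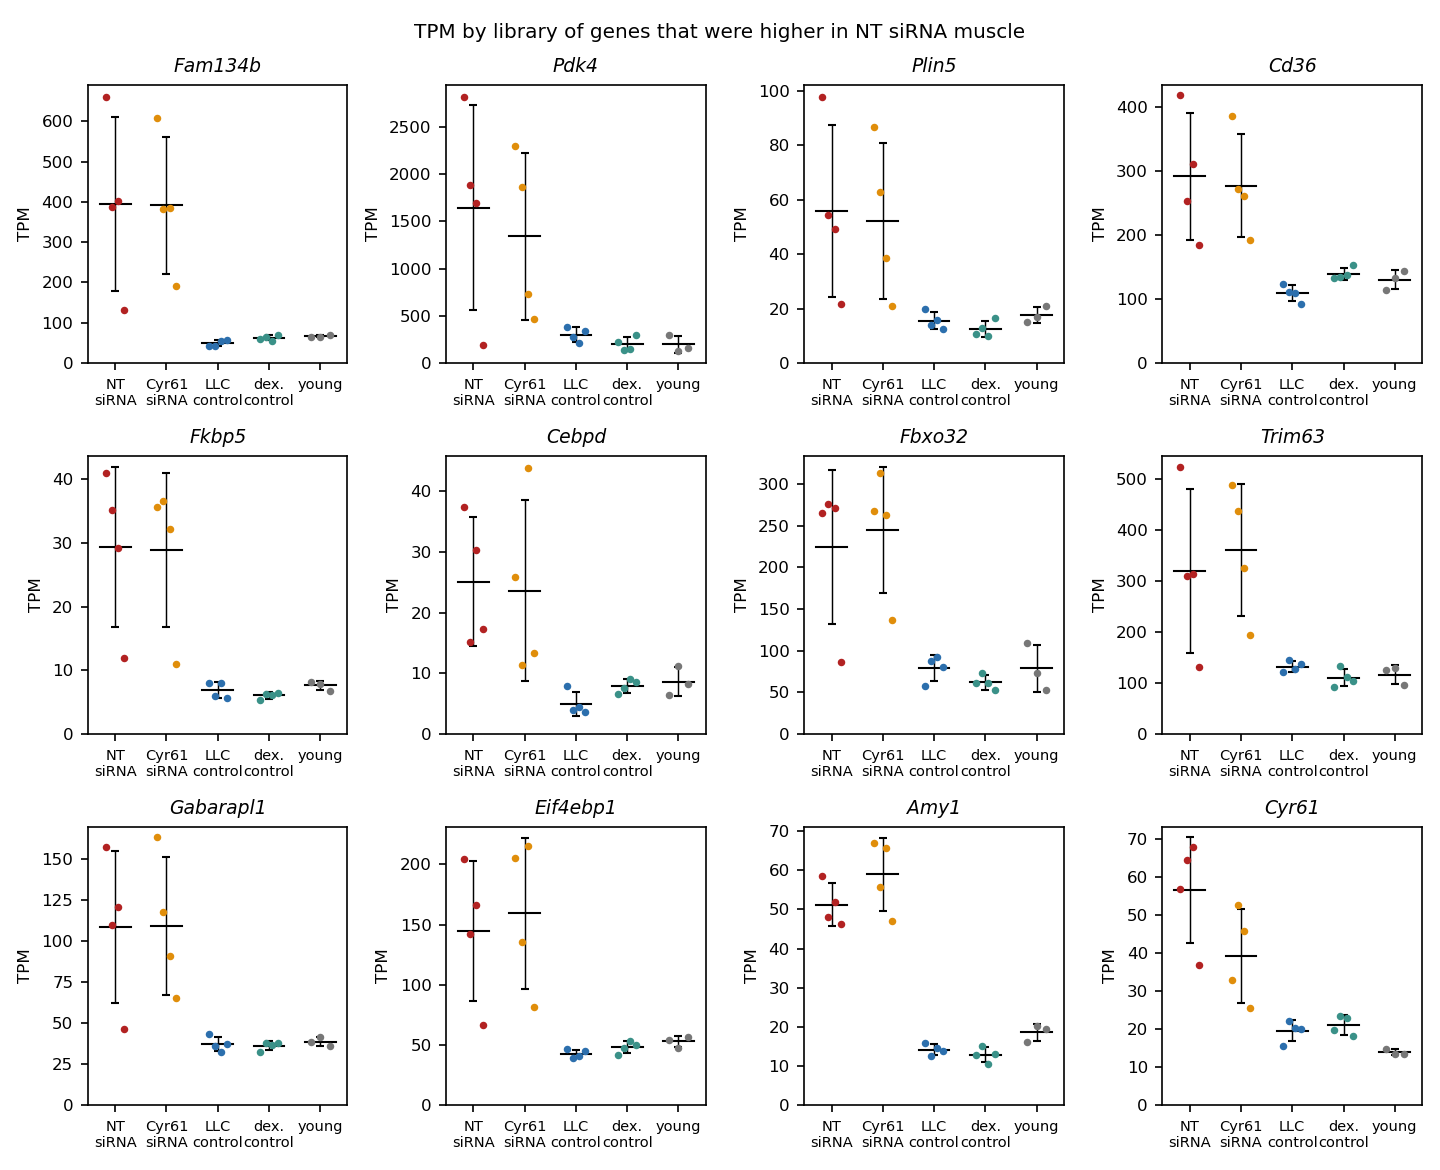
TPM of 12 genes in each library (points) of NT siRNA, Cyr61 siRNA, LLC control, dexamethasone control and young muscle, with the mean (bar) and SD (whisker) of each group. NT siRNA points lie above all control points in Fam134b, Plin5, Cd36, Fkbp5, Cebpd, Gabarapl1, Eif4ebp1, Amy1 and Cyr61, while in Pdk4, Fbxo32 and Trim63 the lowest NT siRNA point, NT siRNA 4, falls among the controls.

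Amy1, Ppp1r1a and Rasd2 were higher, with values in NT siRNA 4 close to or within those of the other NT siRNA libraries. Amy1, an amylase whose reads may be shared with near-identical amylase genes and whose value is therefore uncertain, had 58.6, 48.0, 51.9 and 46.3 TPM in NT siRNA libraries, against 15.8, 12.6, 14.5 and 13.7 TPM in LLC controls and 12.9, 15.03, 10.6 and 13.1 TPM in dexamethasone controls. The groups were widely separated (relative log2 difference 1.81 and 2.09, SE 0.11 each, adjusted p = 1.25e-07 and 4.98e-07). Ppp1r1a, an inhibitor of protein phosphatase 1 that acts downstream of cAMP, had 86.9, 60.4, 118 and 86.3 TPM in NT siRNA libraries, against 20.4 to 28.9 TPM and 13.5 to 24.6 TPM in LLC and dexamethasone controls. Rasd2, a small GTPase related to a glucocorticoid-induced Ras protein, had 25.2, 26.5, 32.6 and 22.0 TPM in NT siRNA libraries, against 7.84 to 9.09 TPM and 5.43 to 9.84 TPM. For both genes the adjusted p was 6.7e-05 or less in both comparisons. Old muscle was also above these controls, with 39.55 to 44.3 TPM of Amy1, 40.1 to 91.3 TPM of Ppp1r1a and 16.2 to 35.01 TPM of Rasd2. In Ppp1r1a and Rasd2 it overlapped NT siRNA libraries. Klhl38, a kelch-family protein of muscle, had 80.1, 62.0, 83.6 and 31.7 TPM in NT siRNA libraries, against 18.3 to 28.5 TPM and 13.5 to 19.99 TPM in LLC and dexamethasone controls. NT siRNA 4 was the lowest NT siRNA library for Klhl38, and the relative log2 differences were 1.47 and 2.10 with it and 1.72 and 2.35 without it. BC048679 averaged 23.8 ± 14.0, 4.65 ± 3.22 and 3.69 ± 1.15 TPM (SD, n = 4 each), in NT siRNA, LLC control and dexamethasone control muscle. Every NT siRNA library lay above every control for Klhl38 and BC048679. Car3, the carbonic anhydrase of slow fibres and fat cells, had 1720, 2125, 2677 and 1571 TPM in NT siRNA libraries, against 1039 to 1370 TPM and 937 to 1441 TPM in LLC and dexamethasone controls (adjusted p = 0.00485 and 0.00137).

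Amd1 and Smox, genes of polyamine and S-adenosylmethionine use, were lower. Polyamines are small cations that support growth; Amd1 makes the donor of their aminopropyl groups from S-adenosylmethionine, and Smox oxidises spermine. Of 17 tested genes of this list, 1 was kept as higher and 6 as lower, beside 3.44% and 11.0% of all genes tested. After scaling 5 were kept as lower, beside 10.2% of all genes. Amd1 had 41.6, 142, 82.5 and 176 TPM in NT siRNA libraries, against 593, 638, 836 and 704 TPM in LLC controls and 440, 316, 457 and 412 TPM in dexamethasone controls. The highest NT siRNA library was below the lowest control (relative log2 difference -2.79, SE 0.33, adjusted p = 9.25e-05, and -1.87, SE 0.33, adjusted p = 0.000289). Amd1 shares reads with its retrogene copy Amd2, so the split between them is uncertain. Smox had 24.9, 53.7, 41.0 and 40.8 TPM in NT siRNA libraries, against 193 to 272 TPM in LLC controls and 84.1 to 154 TPM in dexamethasone controls (relative log2 difference -2.51 and -1.52, adjusted p = 5.54e-06 and 7.55e-05).

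Methyltransferases spend the same donor. Mettl21c, a muscle protein methyltransferase, had 2.56, 6.76, 9.40 and 7.98 TPM in NT siRNA libraries, against 20.4 to 33.7 TPM in LLC controls and 11.3 to 29.3 TPM in dexamethasone controls (adjusted p = 0.000664 and 0.0015). Gnmt, the glycine methyltransferase that disposes of excess S-adenosylmethionine in liver, had 9.69, 3.15, 5.58 and 2.56 TPM in NT siRNA libraries, against 0.573 to 0.815 TPM and 0.642 to 1.36 TPM in the same controls. Since 1 control library reached 1 TPM, Gnmt entered the test only through the NT siRNA libraries, in which it is high, and its call as higher is no support. The window of Gnmt, printed above, holds the receptor motif after the gene start and not before it.

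Further genes of the fibre were lower. Kcng4, a modifier subunit of voltage-gated potassium channels, had 3.12, 9.80, 7.86 and 15.04 TPM in NT siRNA libraries, against 37.0 to 51.3 TPM in LLC controls and 29.3 to 41.5 TPM in dexamethasone controls (adjusted p = 0.000174 and 0.000186). Casq1, the calcium store protein of fast fibres, had 733, 1438, 1229 and 1119 TPM in NT siRNA libraries, against 2372 to 2694 TPM and 2315 to 2693 TPM in the same controls. Both control means were 2.22-fold the NT siRNA mean (adjusted p = 0.000205 and 8.26e-05). Ky, a protein needed for muscle maintenance in mice, had 11.6, 34.9, 36.4 and 51.9 TPM in NT siRNA libraries, against 81.4 to 123 TPM and 83.7 to 116 TPM. Nr4a1, a nuclear receptor that contraction and adrenergic signals induce, had 30.3, 31.5, 39.8 and 48.7 TPM in NT siRNA libraries, against 72.0 to 136 TPM and 66.8 to 105 TPM (adjusted p = 0.000303 and 0.000523).

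Nrep, a neuronal regeneration related protein of injured muscle, had 10.0, 27.5, 26.3 and 29.1 TPM in NT siRNA libraries, against 86.4 to 131 TPM and 112 to 167 TPM in LLC and dexamethasone controls. Igfbp5, which binds insulin-like growth factors, had 15.4, 46.6, 38.2 and 60.5 TPM in NT siRNA libraries, against 114 to 213 TPM and 130 to 200 TPM. Cited4, a coactivator linked to exercise in the mouse heart, had 1.67, 5.13, 3.21 and 4.04 TPM in NT siRNA libraries, against 13.6 to 17.7 TPM and 16.7 to 25.1 TPM. NT siRNA 1 was the lowest of its group in all 3 genes, and no NT siRNA library overlapped a control, while the LLC and dexamethasone controls overlapped each other. Aplnr, the apelin receptor, averaged 1.59 ± 0.498, 7.91 ± 2.28 and 21.6 ± 3.68 TPM in NT siRNA, LLC control and dexamethasone control muscle (SD, n = 4 each), and it also differed between the controls (limma adjusted p = 0.000134). Lrtm2, a leucine-rich repeat membrane protein, averaged 1.18 ± 0.432, 5.99 ± 0.586 and 5.99 ± 1.07 TPM in the same groups (SD, n = 4 each), and Foxo6os, a noncoding RNA antisense to Foxo6, averaged 5.90 ± 1.86, 18.9 ± 2.32 and 22.8 ± 2.10 TPM (SD, n = 4 each). The sources used here do not say how strand was treated in counting, so reads of Foxo6os and Foxo6 cannot be told apart.

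The fast myosins were not called. Myh4 averaged 8022 ± 1667, 9449 ± 462 and 9695 ± 1633 TPM, Myh1 averaged 2851 ± 869, 3153 ± 1035 and 3132 ± 310 TPM, and Myh2 averaged 184 ± 117, 89.1 ± 47.8 and 167 ± 48.3 TPM in NT siRNA, LLC control and dexamethasone control muscle (SD, n = 4 each). The adjusted p in limma was 0.0718 or more for each of them in both comparisons. Myh3 and Myh8, the myosins of embryonic, newborn and regenerating fibres, averaged 7.46 ± 5.31 and 4.70 ± 3.27 TPM in NT siRNA muscle, against 12.4 ± 15.4 and 2.87 ± 3.38 TPM in LLC controls and 27.2 ± 21.1 and 11.0 ± 6.69 TPM in dexamethasone controls (SD, n = 4 each). Mstn, the secreted inhibitor of muscle growth, averaged 12.1 ± 4.28, 13.5 ± 2.04 and 14.0 ± 2.29 TPM (SD, n = 4 each). None of these 3 genes was called in either comparison. Of 14 tested contractile genes of fast fibres, 0 were kept as higher and 2 as lower, near the 3.44% and 11.0% of all genes tested. Against LLC controls alone, 7 of these 14 were called lower, beside 15.5% of all genes. Against dexamethasone controls alone, 1 was called higher and 2 lower, beside 5.82% and 37.7%. Of 13 genes of slow fibres, 0 were kept in either direction.

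The clock genes gave calls in both directions, with Dbp, Hlf, Bhlhe40 and Bhlhe41 lower and Arntl higher. Dbp, a transcription factor with a steep daily rhythm, had 14.5, 10.3, 11.8 and 38.6 TPM in NT siRNA libraries, against 69.6, 29.5, 57.3 and 68.6 TPM in LLC controls and 39.97, 75.8, 74.8 and 95.2 TPM in dexamethasone controls. The overlap came from NT siRNA 4 and LLC control 2 (relative log2 difference -1.63, SE 0.38, adjusted p = 0.00694, and -1.82, SE 0.38, adjusted p = 0.000934). Hlf, of the same family, averaged 1.31 ± 0.599, 2.80 ± 0.446 and 3.15 ± 0.793 TPM in NT siRNA, LLC control and dexamethasone control muscle (SD, n = 4 each; limma adjusted p = 0.00826 and 0.00169). Bhlhe41, a clock repressor, had 5.85 to 12.2 TPM in NT siRNA libraries, against 12.5 to 18.4 TPM and 15.2 to 19.2 TPM in the same controls (adjusted p = 0.0121 and 0.00413). Arntl, the activator Bmal1 that peaks opposite to Dbp, had 13.3, 22.6, 17.8 and 8.83 TPM in NT siRNA libraries, against 8.10 to 11.3 TPM and 6.46 to 9.34 TPM (adjusted p = 0.0385 and 0.00417). Its call against LLC controls was lost without NT siRNA 1, 2 or 3 or LLC control 1, 3 or 4, with adjusted p of 0.0538 to 0.105. Of 17 tested clock genes, 3 were kept as higher and 4 as lower, beside 3.44% and 11.0% of all genes tested. After scaling the counts were 3 and 3, beside 9.57% and 10.2% of all genes. The higher count was 1 without NT siRNA 1 or NT siRNA 3. The labels give no time of day for any group.

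Most tested genes of fibrillar collagen, basement membrane and tendon were lower than in both controls. Of 18 tested genes of fibrillar collagen and its crosslinking, 0 were kept as higher and 12 as lower, with a median relative difference of -0.92 against LLC controls and -1.36 against dexamethasone controls. Of 17 tested genes of basement membrane and collagen VI, 10 were kept as lower. Against young muscle, however, 1 of these 17 was called higher and 0 lower, and 2 were called lower after scaling. Of 11 tested tendon cell genes, 8 were kept as lower. Kera is among them, and it entered the test only through groups in which it is high. Over all genes tested, 11.0% were kept as lower. No gene of these 3 lists was kept as higher, and the lower counts stayed between 10 and 15, 9 and 10, and 6 and 8 when any 1 library was left out. In bulk tissue, fewer cells of a type and less RNA per cell cannot be told apart.

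Col1a1, the main chain of collagen I, had 15.5, 18.3, 26.0 and 2.75 TPM in NT siRNA libraries, against 71.9, 73.0, 35.1 and 81.8 TPM in LLC controls and 135, 101, 221 and 182 TPM in dexamethasone controls. Every NT siRNA library was below every control (relative log2 difference -2.21, SE 0.49, adjusted p = 0.00522, and -3.34, SE 0.49, adjusted p = 0.000111). In young muscle, however, Col1a1 had 15.8, 9.94 and 7.57 TPM, within the range of NT siRNA libraries, and its relative difference to young was 0.08 (adjusted p = 0.862). Col1a2 likewise averaged 12.7 ± 7.28 TPM in NT siRNA muscle (n = 4), 48.1 ± 11.5 TPM in LLC controls (n = 4), 98.8 ± 23.6 TPM in dexamethasone controls (n = 4) and 10.6 ± 4.34 TPM in young muscle (n = 3; SD; limma adjusted p = 0.942 against young). Col6a1, a chain of the microfibrils around fibres, had 11.1, 16.3, 18.5 and 6.64 TPM in NT siRNA libraries, against 22.0 to 31.8 TPM in LLC controls, 77.4 to 129 TPM in dexamethasone controls and 8.79 to 13.7 TPM in young muscle. Sparc, a collagen-binding glycoprotein, averaged 71.3 ± 25.6 TPM in NT siRNA muscle (n = 4), 191 ± 41.0 TPM in LLC controls (n = 4), 337 ± 63.6 TPM in dexamethasone controls (n = 4) and 66.3 ± 11.7 TPM in young muscle (n = 3; SD). Serpinh1, the collagen chaperone of the endoplasmic reticulum, had 13.3 to 17.4 TPM in NT siRNA libraries, against 28.5 to 58.4 TPM in LLC controls, 62.9 to 104 TPM in dexamethasone controls and 21.2 to 27.9 TPM in young muscle (adjusted p = 0.126 against young).

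Of the 11 tested tendon genes, 5 were also called lower against young muscle, beside 6.31% of all genes tested. Of these 5, 4 are given here, Kera among them. Kera, the keratocan of tendon and cornea, had 0.159, 0.0926, 0.695 and 0.110 TPM in NT siRNA libraries, against 5.86, 6.51, 8.28 and 7.75 TPM in LLC controls, 2.10, 3.29, 3.26 and 4.24 TPM in dexamethasone controls and 6.07, 2.07 and 2.02 TPM in young muscle. No NT siRNA library reached 1 TPM, so Kera entered the test through the other groups alone, in which it is high, and its values are a description (relative log2 difference -2.67, -1.56 and -1.83). Tnmd, tenomodulin, a membrane protein of tendon cells, had 1.87, 0.567, 2.62 and 0.348 TPM in NT siRNA libraries, against 5.34 to 10.4 TPM in LLC controls, 3.62 to 7.93 TPM in dexamethasone controls and 3.87 to 6.05 TPM in young muscle (adjusted p = 0.000637, 0.00059 and 0.0138). Fmod, the small proteoglycan fibromodulin, had 6.22, 2.06, 10.1 and 2.03 TPM in NT siRNA libraries, against 17.5 to 28.2 TPM, 8.30 to 22.9 TPM and 16.9 to 32.5 TPM in the same groups (adjusted p = 0.00157, 0.0036 and 0.00299). NT siRNA 3 overlapped 1 dexamethasone control here. Thbs4, thrombospondin 4, averaged 24.4 ± 5.04, 65.4 ± 8.75 and 61.6 ± 13.4 TPM in NT siRNA, LLC control and dexamethasone control muscle (SD, n = 4 each) and 47.6 ± 11.7 TPM in young muscle (SD, n = 3; limma adjusted p = 0.0095 against young). The summed level of the tendon list was 30.2 to 62.9 TPM in NT siRNA libraries, 106 to 147 TPM in LLC controls and 86.8 to 147 TPM in dexamethasone controls.

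Other cells between the fibres gave smaller shares. Of 14 tested markers of fibroadipogenic progenitors, the fibroblast-like cells of muscle, 0 were kept as higher and 6 as lower, of 14 of smooth muscle and pericytes 4 were lower, and of 18 of endothelium 2 were lower, which is near the 11.0% of all genes tested. The endothelial count was 1 without NT siRNA 1, NT siRNA 2, LLC control 1 or LLC control 2. The smooth muscle count was 1 without LLC control 1 or 2 and 2 without NT siRNA 1, NT siRNA 2 or LLC control 4. The summed progenitor markers were 420 to 706 TPM in NT siRNA libraries, 671 to 781 TPM in LLC controls and 938 to 1138 TPM in dexamethasone controls, and their part in the collagen values was not tested.

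**Figure D4:**
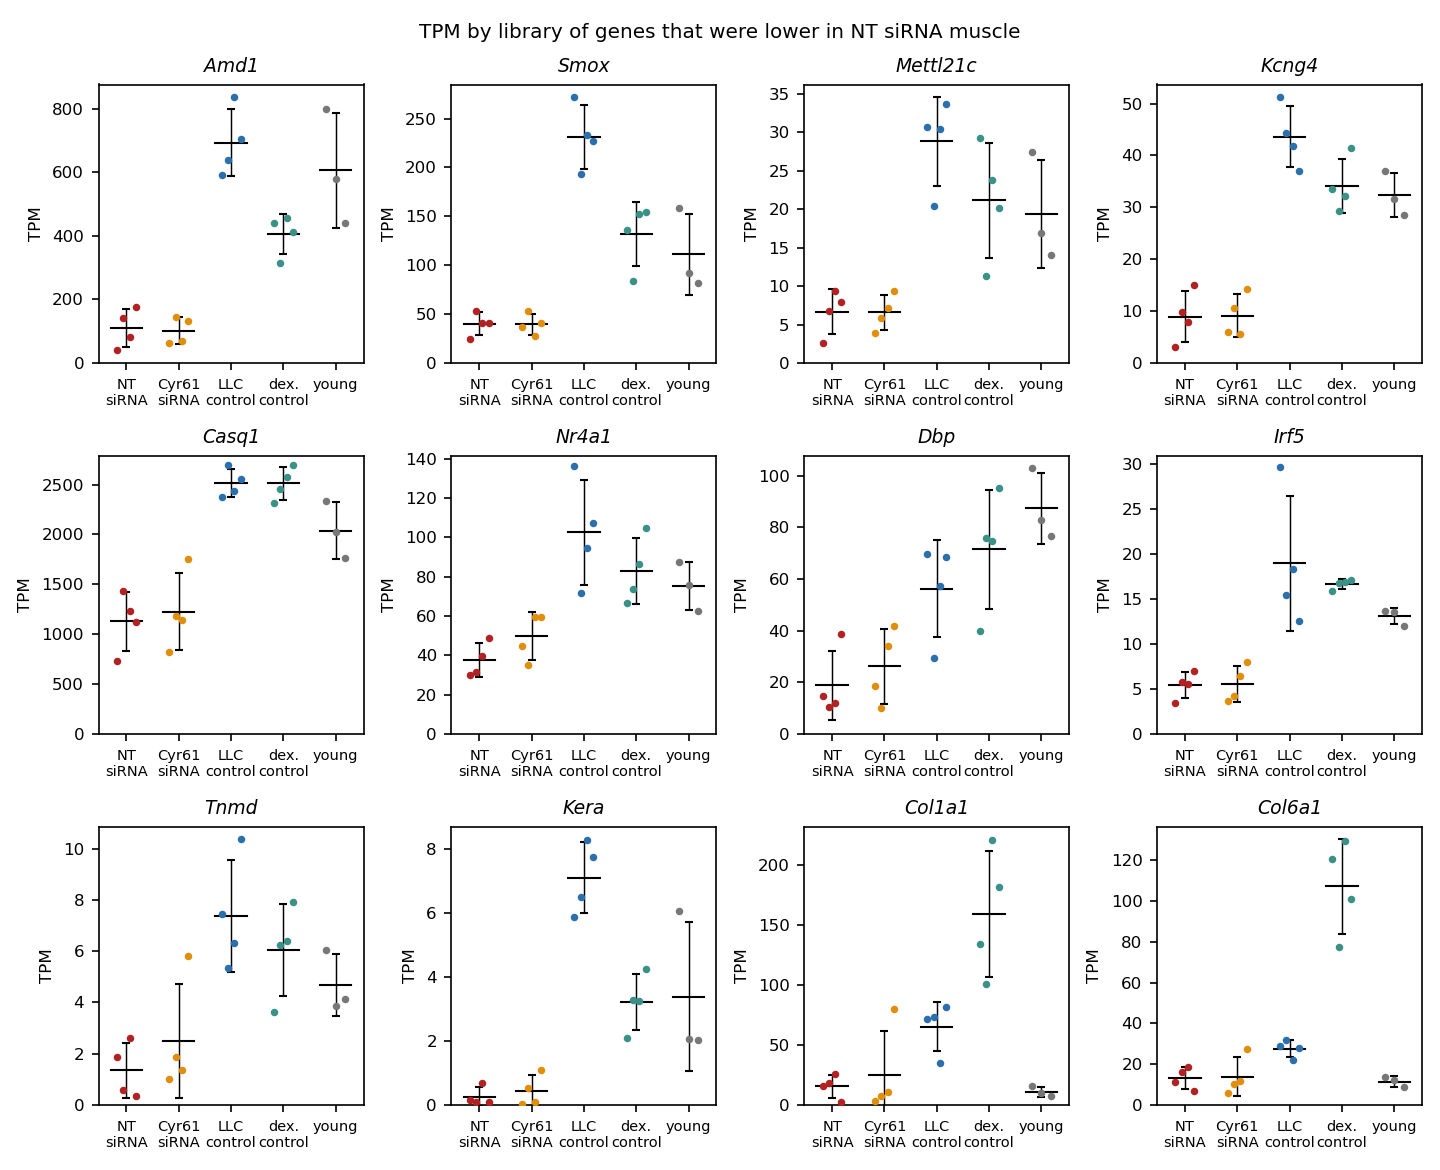
TPM of 12 genes in each library (points) of NT siRNA, Cyr61 siRNA, LLC control, dexamethasone control and young muscle, with the mean (bar) and SD (whisker) of each group. Amd1, Kcng4, Casq1, Irf5 and Kera are low in NT siRNA muscle beside LLC control, dexamethasone control and young muscle, whereas Col1a1 and Col6a1 are about as low in young muscle.

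Most markers of inflammation were not kept against both controls, where 3.44% of all genes tested were kept as higher and 11.0% as lower. Of 31 tested interferon-stimulated genes, 0 were kept as higher and 1 as lower, of 13 genes of MHC class I and II 0 were kept, of 18 macrophage markers 1 was lower, and of 14 genes that sense foreign nucleic acid 1 was lower. These groups differed between the controls: 26 of the 31 interferon-stimulated genes were lower in LLC than in dexamethasone controls. Against dexamethasone controls alone (37.7% of all genes lower), 21 of the 31 interferon-stimulated genes, 11 of the 13 MHC genes and 16 of the 18 macrophage markers were lower in NT siRNA muscle. The sensing gene that was lower is Irf5, a transcription factor downstream of Toll-like receptors, with 3.49, 5.81, 5.56 and 6.97 TPM in NT siRNA libraries, against 12.5 to 29.7 TPM in LLC controls, 15.9 to 17.1 TPM in dexamethasone controls and 12.04 to 13.7 TPM in young muscle. It did not overlap any of them (adjusted p = 0.000246, 0.000143 and 0.00335). It did overlap old muscle, with 5.02 to 10.8 TPM, and LLC muscle, with 6.31 to 14.5 TPM. Of 14 tested genes of the small RNA silencing machinery, which siRNAs use, 0 were kept as higher and 2 as lower, near the 3.44% and 11.0% of all genes tested. Ago2, the slicing enzyme of that machinery, had 6.29, 7.59, 8.14 and 7.58 TPM in NT siRNA libraries, against 10.4 to 11.9 TPM in LLC controls and 9.36 to 13.8 TPM in dexamethasone controls (relative log2 difference -0.48 and -0.44, adjusted p = 0.00596 and 0.000735).

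Igkc was higher, with a wide spread between NT siRNA libraries. Igkc, the constant part of kappa light chains, had 12.2, 191, 830 and 1989 TPM in NT siRNA libraries, against 0.388, 1.37, 0.591 and 0.229 TPM in LLC controls and 23.9, 6.61, 3.82 and 7.62 TPM in dexamethasone controls. The NT siRNA libraries spanned a wide range, and the lowest overlapped 1 dexamethasone control (relative log2 difference 7.35, SE 1.12, adjusted p = 0.000569, and 4.93, SE 1.12, adjusted p = 0.00373). Among Cyr61 siRNA libraries Igkc had 64.1, 34.7, 3602 and 55.8 TPM. Ighm, the heavy chain of IgM, had 17.9, 162, 379 and 954 TPM in NT siRNA libraries, against 41.1 to 63.4 TPM in LLC controls and 28.5 to 53.03 TPM in dexamethasone controls, and it was not kept (adjusted p = 0.125 against LLC controls). Without NT siRNA 1, the relative log2 differences of Ighm were 2.90 (adjusted p = 0.000807) and 3.43 (adjusted p = 0.000162). That library held the lowest Ighm value of its group, so leaving it out raises the difference, and these calls are no support. Without any other 1 library, Ighm was not called against LLC controls, with adjusted p of 0.142 to 0.318. Jchain, which joins IgM and IgA chains, was not tested and had 0.406, 7.12, 17.0 and 25.8 TPM in NT siRNA libraries, against at most 0.145 TPM in LLC controls and 0.849 TPM in dexamethasone controls. The libraries NT siRNA 3 and 4 were the highest in all 3 genes; Ighm and Jchain were looked up after the values of Igkc were seen, and reads of antibody segments are uncertain since near-identical segments share them. Cxcl13, the chemokine that draws B cells, had 1.58, 2.63, 14.7 and 4.47 TPM in NT siRNA libraries, against at most 0.273 TPM in LLC controls and 0.609 TPM in dexamethasone controls. No control reached 1 TPM, so Cxcl13 entered the test only through the NT siRNA libraries, in which it is high, and its call is no support. Of 8 tested lymphocyte markers, Igkc was the 1 kept. Without NT siRNA 1 there were 5 kept, and without any other library 1. The sum of that list was 34.1 to 2968 TPM in NT siRNA libraries, 48.9 to 68.2 TPM in LLC controls and 52.9 to 88.6 TPM in dexamethasone controls.

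**Figure D5:**
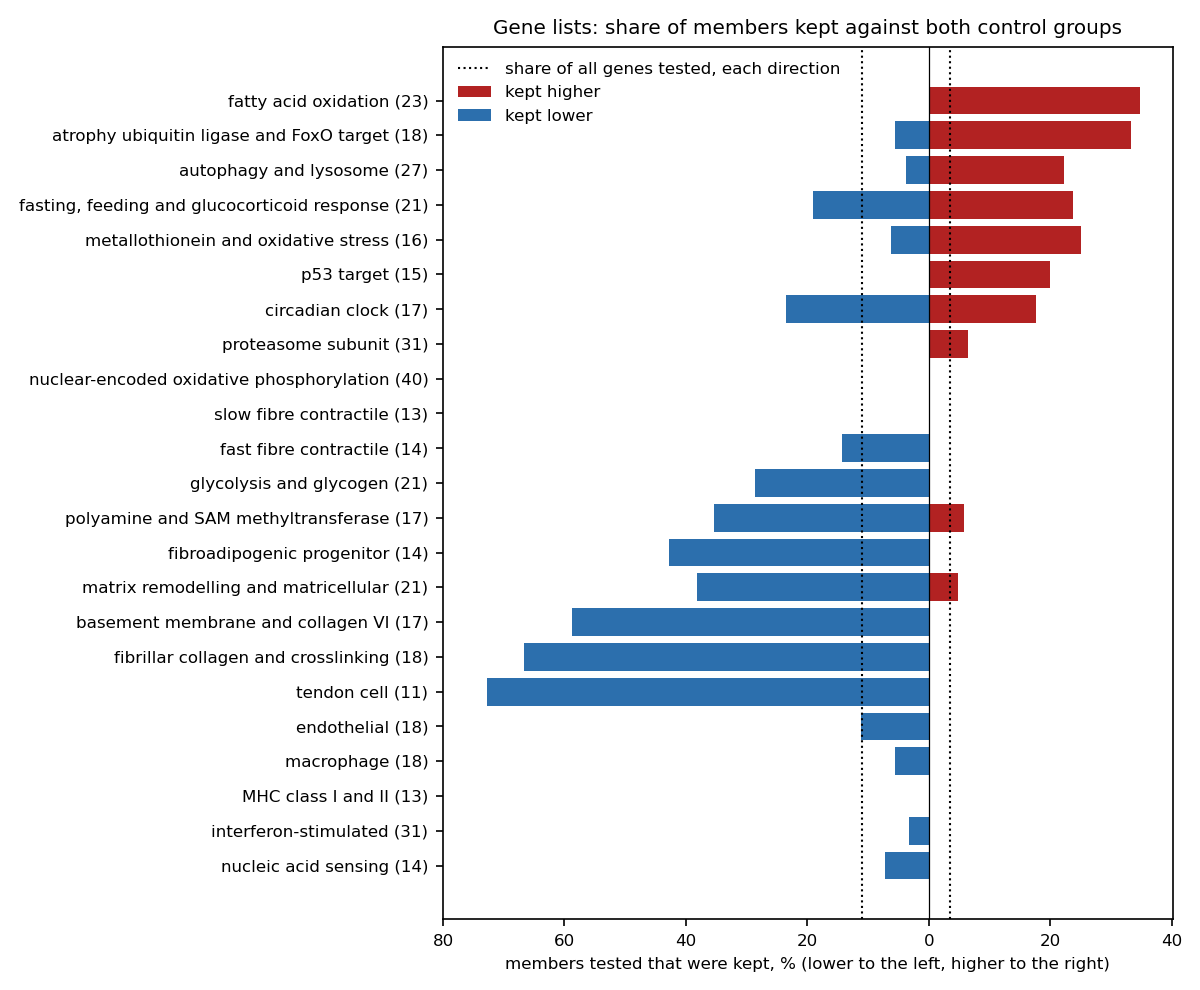
For 23 gene lists (number of members tested in brackets), bars give the share of members kept as higher (red, to the right) and as lower (blue, to the left) in NT siRNA muscle, and dotted lines give the share over all genes tested, 3.44% higher and 11.0% lower. Fatty acid oxidation and atrophy genes reach furthest to the right, and tendon, collagen and basement membrane genes furthest to the left.

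Cyr61, the gene that the sister siRNA targets, was itself higher in NT siRNA muscle than in both controls and in young muscle. It encodes a secreted matrix protein that YAP and TAZ induce, and RefSeq lists it as Ccn1, at chr3:145646971-145649985 (GRCm38.p6). Its level was 57.0, 64.6, 67.8 and 36.8 TPM in NT siRNA libraries and 32.9, 52.8, 45.8 and 25.5 TPM in Cyr61 siRNA libraries, against 15.6, 22.2, 20.4 and 19.9 TPM in LLC controls, 19.8, 23.5, 22.9 and 18.1 TPM in dexamethasone controls and 14.8, 13.4 and 13.4 TPM in young muscle. All 4 NT siRNA libraries and all 4 Cyr61 siRNA libraries lay above all 11 libraries of these controls and young muscle. Treated muscle of the other experiments overlapped NT siRNA muscle, with 35.7 to 70.6 TPM in 4 dexamethasone libraries and 12.05 to 40.5 TPM in 4 LLC libraries. The relative log2 difference of NT siRNA muscle was 1.49 (SE 0.17, adjusted p = 8.95e-05) against LLC controls, 1.53 (SE 0.17, adjusted p = 5.74e-05) against dexamethasone controls and 1.79 (adjusted p = 8.67e-05) against young muscle. That of Cyr61 siRNA muscle was 0.88 (adjusted p = 0.00298) against LLC controls and 0.92 (adjusted p = 0.00415) against dexamethasone controls. Of 16 tested targets of YAP and TAZ, Cyr61 was the 1 kept as higher, and 2 were kept as lower, near the 3.44% and 11.0% of all genes tested.

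Beside Cyr61 siRNA muscle of the same experiment, NT siRNA muscle differed in 0 of 12034 genes tested (0%) by limma at an adjusted p under 0.05, with 366 genes at an unadjusted p under 0.05 and 1 gene (0.00831%) called after scaling. The fit took the libraries as unpaired, and whether equal numbers pair the siRNA groups was not checked. Cyr61 itself was lower in Cyr61 siRNA than in NT siRNA muscle for every library number. The siRNA groups share the 2 control groups, so each comparison is given by its own values. Cyr61 siRNA muscle had 1775 genes higher (14.7%) and 1118 lower (9.29%) than LLC controls, and 1039 higher (8.63%) and 3344 lower (27.8%) than dexamethasone controls. Fam134b averaged 392 TPM in Cyr61 siRNA muscle beside 396 TPM in NT siRNA muscle, Fbxo32 averaged 245 beside 224 TPM, Pdk4 averaged 1340 beside 1646 TPM, Amd1 averaged 102 beside 111 TPM and Casq1 averaged 1225 beside 1130 TPM. Col1a1 had 2.94, 7.16, 10.7 and 79.8 TPM in Cyr61 siRNA libraries, so that the library numbered 4 reached the level of the LLC controls.

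Young muscle, which the rule did not use, gave 2579 genes higher (21.4%) and 759 genes lower (6.31%) in NT siRNA muscle out of 12034, and 2731 and 1968 after scaling; without the library young 3 the total was 1859 in place of 3338. This comparison shares the NT siRNA libraries with those above. The median gene lay 0.13 higher in NT siRNA than in young muscle on the log2 scale, and differences are relative to it. Fam134b differed by 2.20 (adjusted p = 0.000897), Pdk4 by 2.51 (adjusted p = 0.011), Fkbp5 by 1.56 (adjusted p = 0.00335), Fbxo32 by 1.29 (adjusted p = 0.00814), Amy1 by 1.29 (adjusted p = 3.12e-05) and Gnmt by 1.26 (adjusted p = 0.008). On the lower side, Amd1 differed by -2.72 (adjusted p = 0.000602), Kcng4 by -2.03 (adjusted p = 0.0013), Cited4 by -1.73 (adjusted p = 0.00132), Smox by -1.56 (adjusted p = 0.00184), Nr4a1 by -1.13 (adjusted p = 0.00484), Casq1 by -1.01 (adjusted p = 0.00605) and Dbp by -2.47 (adjusted p = 0.00214). All 15 genes named as the largest higher ones were also called higher against young muscle. They were chosen for high values in the same NT siRNA libraries, so these calls are no support. Cxcl13 is among them, and within the 5 groups of this fit it reached 1 TPM in siRNA libraries alone. Outside the fit, its highest value was 1.84 TPM in old muscle, 1.72 TPM in LLC muscle and 1.82 TPM in dexamethasone muscle. Among the fibrillar collagen list, 1 of 18 genes was called higher and 2 lower against young muscle, while 5 of 11 tendon genes, Kera among them, were called lower. The basement membrane and collagen VI list gave 1 of 17 higher and 0 lower. MHC genes and macrophage markers were often higher than in young muscle, with 12 of 13 and 12 of 19 called higher and none lower, beside 21.4% of all genes called higher. Of 32 interferon-stimulated genes, 9 were called higher and none lower, which is near that share. After scaling 8 were called higher, beside 22.7% of all genes.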

How the data were processed

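RNA of tibialis anterior muscle was extracted with Trizol, made into stranded mRNA libraries and sequenced on an Illumina NovaSeq, per the labels' protocols. The authors deposited TPM values, transcript abundances scaled to length, for 47643 genes, and every library sums to 1000000. The build was mm10 per the submitters' processing notes; aligner, counter and strand use: not given in the sources used here. TPM is a share of each library, so a rise in a few abundant genes lowers all others.

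Differences were fitted with limma 3.58.1 (R 4.3.3) on log2(TPM + 1) in 1 model of the 3 groups, for 11615 genes with at least 1 TPM in at least 4 of the 12 libraries. Adjusted p-values are two-sided, Benjamini-Hochberg adjusted over all genes tested, and called under 0.05. A gene was kept when called in the same direction against both controls. Comparisons with young and Cyr61 siRNA muscle came from a model of 5 groups with 12034 genes. All p-values without another name are from limma. The fit was tested on simulated data.

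Genes were named from those kept under both scalings: up to 15 in each direction by the smaller of the 2 differences, at a mean of at least 5 TPM and with no overlap of libraries, up to 4 members of each list at a mean of at least 2 TPM, and a fixed set of Cyr61, Fbxo32, Trim63, Mstn and 5 myosins. Unnamed gene models were passed over. The groups, the members and the lists were chosen with earlier results of these data known. Srebf1, Ighm, Jchain, Bglap2 and Ibsp were chosen after their values were seen. Sgk1, Fasn and the kept heat shock, unfolded protein response and clock genes given without values are named to account for small counts.

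For 84.4% of 22207 genes, values were whole multiples of the worth of 1 read within 0.05 reads, using annotated lengths, which gave approximate depths. These cover counting error only. Alternatives were other pseudocounts, filters, scalings, weights and thresholds, a replicate block, leaving out each library, and, chosen after seeing the data, voom on recovered reads, list counts without each library, and median-of-ratios scaling without NT siRNA 4. Whether equal numbers pair the NT siRNA, LLC control and dexamethasone control libraries was checked by correlating deviations from group means. Promoter sequences came from RefSeq (GRCm38.p6).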

Additional observations from a re-analysis of the deposited data

Results flagged for a closer look

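Libraries far from the others of their group were sought in 219 sets of a gene and a group, and 15 were found; chance alone gives about 1 in 20 sets. Among NT siRNA libraries, NT siRNA 4 stood apart in Fbxo32 with 86.5 TPM (the other 3 had 265.1 to 275.3 TPM), in Cat with 56.65 TPM (119.8 to 126 TPM) and in Dbp with 38.62 TPM (10.31 to 14.54 TPM). NT siRNA 1 stood apart in Lpl with 332.5 TPM (153.8 to 161.6 TPM), in Nrep with 10.02 TPM (26.27 to 29.08 TPM) and in Myh2 with 358.2 TPM (112.1 to 149.6 TPM). NT siRNA 3 stood apart in Kera with 0.6952 TPM (0.09265 to 0.1595 TPM) and in Ibsp with 0.02521 TPM, where the other 3 were listed at 0.

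Among LLC controls, library 1 stood apart in BC048679 with 9.473 TPM (2.793 to 3.34 TPM) and in Myh1 with 4703 TPM (2547 to 2683 TPM), library 2 in Arntl with 11.28 TPM (8.095 to 8.634 TPM), library 3 in Cited4 with 13.56 TPM (17.01 to 17.7 TPM) and library 4 in Bnip3 with 133.9 TPM (121.1 to 122.1 TPM). Among dexamethasone controls, library 2 stood apart in Klhl38 with 19.99 TPM (13.46 to 14.24 TPM) and library 3 in Lrtm2 with 7.583 TPM (5.332 to 5.581 TPM).

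In addition, 111 genes were called in opposite directions against the LLC and the dexamethasone controls, each call being limma's adjusted p under 0.05; after median-of-ratios scaling there were 202. None of them is counted among the kept genes.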

How the results depend on the processing

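The counts moved with the processing. Genes kept as higher numbered 399 on deposited TPM, 1111 after median-of-ratios scaling, 1082 after rescaling without mitochondrial genes, 1307 after quantile normalization and 1271 with array weights; voom on recovered reads gave 703 and, with median-of-ratios library sizes, 1073. Leaving out 1 library at a time gave 266 to 1002 higher genes (lowest without NT siRNA 3, highest without NT siRNA 4), 874 to 1500 lower genes, 1155 to 2157 kept in all and 954 to 1984 kept under both scalings. Median-of-ratios scaling without NT siRNA 4 gave 1372 higher, 2723 kept in all and 4810 called against LLC controls. An adjusted p under 0.01 left 180 higher, 578 lower and 758 in all, and a log2 difference of at least 1 left 55, 82 and 137. Array weights gave 2919 kept in all and 2267 under both scalings, and a filter of 5 TPM gave 924 under both. Against LLC controls, 3097 genes called became 4663 without mitochondrial genes, 5402 with array weights, 1503 at p under 0.01, 285 at a difference of at least 1 and 2184 to 4031 with 1 library left out. Against dexamethasone controls, 5053 became 2710 at 5 TPM, 665 at a difference of at least 1 and 3913 to 5368. Between the controls, 4321 became 1958, 2673 and 371 at 5 TPM, p under 0.01 and a difference of at least 1, and 3132 to 5162. Against young muscle, 3338 became 2097 at 5 TPM, 1319 with each pair of groups fitted alone, 1440 at p under 0.01, 378 at a difference of at least 1 and 1859 to 4575. The difference in mitochondrial share was 3.04 to 6.33 points against LLC controls and 0.248 to 3.54 points against dexamethasone controls. An estimate of array weights stopped before it reached its convergence tolerance, so values with array weights are approximate. Causes were not tested.

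Same-numbered libraries of the NT siRNA, LLC control and dexamethasone control groups correlated at -0.364 to 0.186 in their deviations from group means. In these groups 0 libraries correlated best with their own number in both other groups, so the numbers were not taken as a pairing. Cyr61 siRNA libraries were not part of this check. The fit with a replicate block kept 355 genes as higher, 993 as lower, 1348 in all and 1165 under both scalings.

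Of 4144 values of 144 gene contrasts under an alternative, 4028 kept their direction and side of the threshold, 72 were no longer called, 10 were newly called and 34 changed sign. The sign changes were in genes that were not called. Mstn was 0.0354 (LLC) and 0.0513 (dexamethasone) with array weights, and -0.32 to 0.10 and -0.21 to 0.20 with 1 library left out. Against LLC controls, quantile normalization gave 0.15 for Myh1 and 0.14 for Myh4, and Myh1 was -0.31 to 0.0677 with 1 library left out. Against dexamethasone controls, Myh1 was 0.0362 and 0.0174 with pseudocounts of 0.1 and 0.5, 0.0327 after median-of-ratios scaling, 0.0261 without mitochondrial genes, 0.0148 and 0.01355 with voom on each library size, 0.12 after scaling without NT siRNA 4, and -0.19 to 0.0964 with 1 library left out; Myh2 was -0.0712 after quantile normalization and -0.19 to 0.38 with 1 library left out, and Myh4 was 0.0187 with array weights. Myh3 against LLC controls was 0.0266 with a pseudocount of 0.1, 0.0774 and 0.0842 with voom on each library size, 0.52 after scaling without NT siRNA 4, and -0.69 to 0.71 with 1 library left out. In the NT siRNA libraries, 3 reads for a gene of 2 kb are 0.0642 to 0.0782 TPM, which limits genes at such levels.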

Other observations

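Rabep2, which encodes an endosomal effector of Rab GTPases, was lower in the siRNA and age experiments than in the other 2. It averaged 1.40 ± 0.27 TPM in NT siRNA muscle, 1.46 ± 0.24 TPM in Cyr61 siRNA muscle, 8.99 ± 1.11 TPM in LLC muscle, 4.88 ± 1.79 TPM in dexamethasone muscle, 8.30 ± 1.25 TPM in LLC controls, 7.16 ± 0.66 TPM in dexamethasone controls (SD, n = 4 each), 1.30 ± 0.44 TPM in old muscle and 1.09 ± 0.35 TPM in young muscle (SD, n = 3 each). The genotype, strain and tissue labels are the same in all 8 groups.

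Bglap2 and Ibsp were low in the siRNA and age experiments. Bglap2, an osteocalcin gene whose reads may be shared with its near-identical neighbours, was listed at 0 in all 4 NT siRNA libraries, at 0 to 0.112 TPM in Cyr61 siRNA libraries, at 0 in old muscle and at 0 to 0.484 TPM in young muscle. It was at 0 to 2.89 TPM in LLC muscle, 0.487 to 3.80 TPM in dexamethasone muscle, 4.00 to 19.2 TPM in LLC controls and 1.88 to 7.13 TPM in dexamethasone controls, so the ranges of LLC muscle and LLC controls did not overlap either. Ibsp, bone sialoprotein, was at 0 to 0.0252 TPM in NT siRNA libraries, 0 to 0.0214 TPM in Cyr61 siRNA libraries, 0 to 0.0540 TPM in old muscle and 0 to 0.0551 TPM in young muscle, and at 0.0396 to 4.14 TPM in LLC muscle and 0.444 to 3.15 TPM in dexamethasone muscle, against 1.12 to 7.31 TPM in LLC controls and 0.784 to 7.76 TPM in dexamethasone controls. Both genes were singled out after their values were seen.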
